A study of Mus musculus with 8 samples.

Results

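Hippocampus was compared with cerebral cortex in male mice that had received clothianidin, a neonicotinoid insecticide acting as an agonist of nicotinic acetylcholine receptors, at 50 mg/kg/day for 2 weeks. The comparison used the 4 arrays whose titles name the exposed arm, 2 of hippocampus and 2 of cortex, of 8 arrays in all. The remaining 4 arrays came from the same tissues, 2 of each, of mice given vehicle with 1% DMSO, and served as the unexposed reference. Mice of all groups were male and aged 12 weeks; no genotype, transgene or strain is given in the labels used here. Arrays are named by tissue, arm and label number, which was 3 or 6 in the exposed arm and 1 or 6 in the vehicle arm. The labels do not state that the arrays of a group came from separate animals, so each p-value speaks only of the scatter among these arrays, part or all of which may be technical.

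The hippocampus is a folded, older part of the cortical sheet. It is built of the dentate gyrus, whose granule cells send mossy fibres to CA3, and of the CA3, CA2 and CA1 pyramidal fields, which pass activity on to the subiculum. The neocortex is stacked in layers instead, with neurons of the upper layers connecting cortical areas and neurons of the deep layers projecting to the brainstem, spinal cord and thalamus. Both hold excitatory pyramidal cells, inhibitory interneurons and the same classes of glia and vessel cells.

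Every value below is either a level, which is the log2 value of a probe set on 1 array, or a difference, which is hippocampus minus cortex on that scale in exposed mice unless vehicle is named. A gene was called different where limma's Benjamini-Hochberg adjusted p was under 0.05 over all 14804 probe sets tested. Of 19572 probe sets with a gene symbol, 13241 were tested and 6331 were left out as low. The lowest mean of a tested probe set was 3.94, and a tissue mean below that level was not shown to be above background. Among the genes described, this holds in cortex for Ndst4, Il16, Dsp, Lct, Spink8, Amigo2, Lhx9, Chrna5, Chrm5 and Folr1, in hippocampus for Ankrd34c, Stard8, Foxp2, Ntsr1 and Vmn1r137, and in both for Otx2, Kcne2 and Calml4. Array medians were 5.37 to 5.38 in exposed hippocampus and 5.22 to 5.25 in exposed cortex, and precision is limited by having 2 arrays per group. The 2 exposed arrays of a tissue correlated at r = 0.9902 in cortex and 0.9898 in hippocampus, against 0.9722 to 0.9752 between the tissues.

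Limma called 2143 probe sets different between the tissues of exposed mice, which is 14.5% of those tested. Of these, 1370 (9.25%) were higher in hippocampus and 773 (5.22%) were higher in cortex. With a symbol there were 1246 and 698. The shares of 9.25% and 5.22% are those to set beside each count of called list members given below. The median called difference corresponded to 2.44-fold for hippocampus-higher and 2.58-fold for cortex-higher probe sets. Called differences of at least 4-fold numbered 197 in favour of hippocampus and 147 in favour of cortex. Those of at least 8-fold numbered 64 and 44, and those of at least 16-fold 27 and 8. Each cut thus leaned to hippocampus, as did the calls as a whole. The median over all tested probe sets was itself shifted by 0.12 towards hippocampus. With each array centred on its median that shift was -0.02 and hippocampus-higher calls made up 49.1% of calls instead of 63.9%, and with quantile normalization it was 0.01 and they made up 51.4%. Leaving out 1 exposed array gave 1074 calls without cortex array 3, 1188 without cortex array 6, 1382 without hippocampus array 3 and 1099 without hippocampus array 6. Of the calls made with all arrays, 1027, 1118, 1283 and 1031 were made again.

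**Figure D1:**
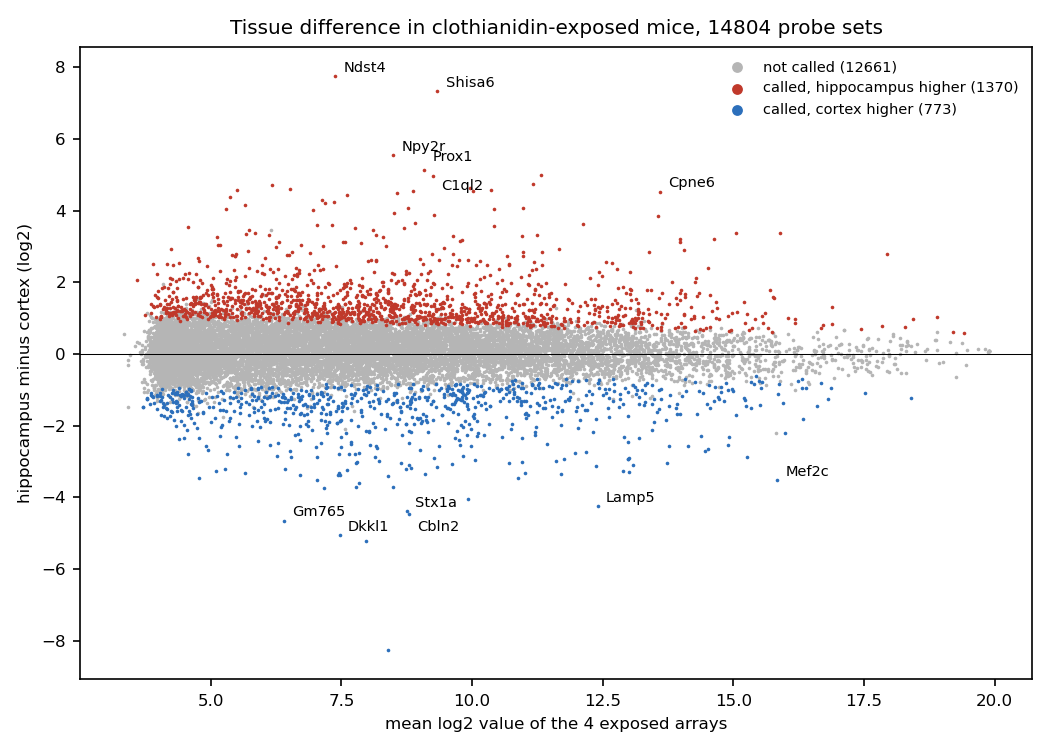
Each point is 1 of 14804 probe sets, with the mean log2 level over the 4 exposed arrays on the x axis and the log2 difference, hippocampus minus cortex, on the y axis. Called probe sets are coloured by the tissue in which they were higher (1370 hippocampus, 773 cortex), the other tested ones are grey, and Ndst4 at 7.76 and Dkkl1 at -5.05 are the extreme labelled genes.

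Among genes higher in hippocampus, Ndst4, an enzyme that sulfates heparan sulfate chains, had the largest difference. Its levels were 11.14 and 11.38 in the hippocampus arrays and 3.66 and 3.33 in the cortex arrays. The difference was 7.76 (SE 0.28, n = 2 arrays per tissue, limma adjusted p = 6.1e-08). The fold of 218 is thus against a cortex level below the 3.94 limit. Shisa6, an auxiliary protein of AMPA-type glutamate receptors, measured 12.51 and 13.51 in hippocampus and 5.81 and 5.52 in cortex, a difference of 7.34 (SE 0.36, limma adjusted p = 4.1e-07). Npy2r, the Y2 receptor for neuropeptide Y, measured 11.16 and 11.36 against 6.05 and 5.37, which is 46.9-fold. The arrays of the tissues did not overlap for these genes, which the choice of genes required. Over all tested probe sets, 57% had no overlap in exposed mice. In bulk tissue, fewer cells of a type and less RNA per cell cannot be told apart, and this holds for each difference given here.

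Prox1, the homeodomain factor that specifies dentate granule cells, measured 11.34 and 11.96 in hippocampus and 6.44 and 6.57 in cortex, 35.4-fold higher (difference 5.14, SE 0.27, limma adjusted p = 5.3e-07). C1ql2, a C1q-like protein that granule cells secrete at mossy fibre synapses, measured 11.79 and 11.68 against 6.74 and 6.78, 31.5-fold higher (4.97, SE 0.24). The stretch of 250 bases upstream of the first listed start of each gene is shown because the pair had the largest differences of the dentate list; it comes from the RefSeq table of build GRCm38.p6, runs 5′ to 3′ on the gene's strand, and has matches to the searched motifs in capitals.
Prox1 (chr1:190170828-190171077, - strand): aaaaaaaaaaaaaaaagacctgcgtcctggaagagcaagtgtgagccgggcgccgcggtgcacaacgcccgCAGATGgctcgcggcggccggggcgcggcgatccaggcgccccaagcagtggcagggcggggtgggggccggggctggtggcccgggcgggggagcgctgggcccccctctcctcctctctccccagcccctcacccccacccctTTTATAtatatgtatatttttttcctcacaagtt
C1ql2 (chr1:120340332-120340581, + strand): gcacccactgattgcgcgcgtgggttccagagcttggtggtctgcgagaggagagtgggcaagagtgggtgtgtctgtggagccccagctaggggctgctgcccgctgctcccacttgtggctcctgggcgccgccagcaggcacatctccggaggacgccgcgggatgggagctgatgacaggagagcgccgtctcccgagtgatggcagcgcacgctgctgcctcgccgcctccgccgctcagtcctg
The motifs searched on both strands were TATAAA, the cAMP response element TGACGTCA, the CArG box, the MEF2 motif (CTA, any 4 bases, TAG) and the E-box CAGATG, and no match overlapped another in the sequences shown. The Prox1 stretch held TATAAA on the opposite strand 34 to 29 bases before the start and CAGATG 179 to 174 bases before it, and these letters were not found in the C1ql2 stretch. Over the 10668 tested genes with a listed promoter, 7.81% held TATAAA and 10.3% held CAGATG. Among the 966 hippocampus-higher genes with one, the shares were 7.56% and 11.8%. Both stretches were rich in G and C, at 64.8% and 68.8% against a median of 59.2% over tested genes. A match is a run of letters and was not tested as a binding site.

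Other genes with large hippocampus-higher differences covered several functions. Nr3c2, the mineralocorticoid receptor, measured 13.12 and 13.96 in hippocampus and 8.82 and 8.79 in cortex, 26.6-fold higher. St18, a zinc finger transcription factor, was 24.9-fold higher, and Ccnjl, a cyclin-like gene, 24.3-fold. Epha6, an ephrin receptor, was 23.9-fold higher, Il16, which encodes a cytokine precursor, 23.8-fold, and the growth factor Tgfb2 23.5-fold. Cabp7, a calcium-binding protein, was 23.4-fold higher, Cpne6, a copine of excitatory neurons, 23.1-fold, and Serpina3n, a protease inhibitor made by astrocytes, 22.7-fold. Each of these was called in both arms, with vehicle differences from 3.74 for Serpina3n to 5.28 for Nr3c2.

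**Figure D2:**
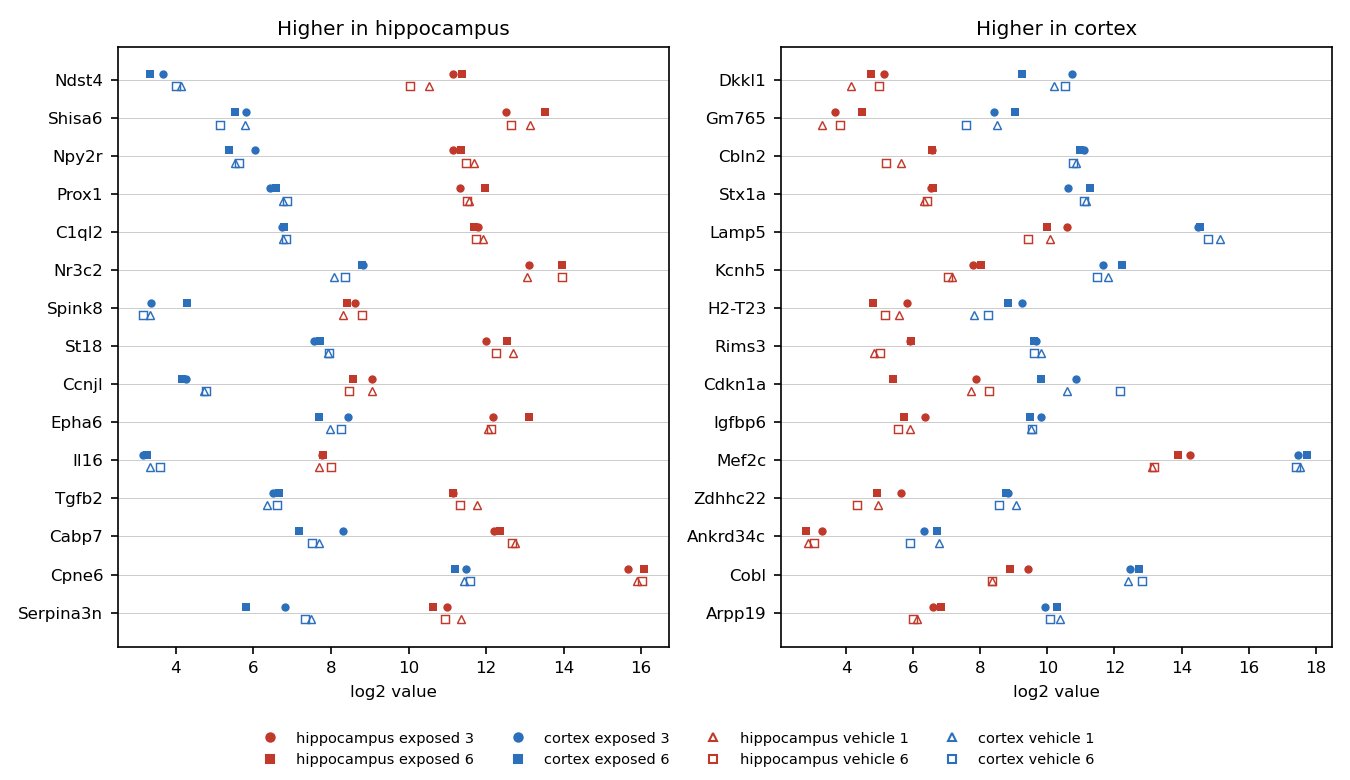
Levels (log2) in each of the 4 exposed arrays (filled symbols) and 4 vehicle arrays (open symbols). Shown are the 15 genes with the largest hippocampus-higher and the 15 with the largest cortex-higher difference among called genes with a symbol. Points are single arrays, coloured by tissue. The exposed arrays of the tissues do not overlap for any gene shown, which the choice of genes required. Ndst4 spans from 3.33 to 11.38 in the exposed arrays.

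Subfield markers were set beside the tissue label, from lists chosen with earlier results of these data known. Of 11 dentate granule markers tested, 7 were called higher in hippocampus and 1 lower, with a median difference of 1.68 against 0.12 over all probe sets. Besides Prox1 and C1ql2 these were Dsp, which encodes desmoplakin (7.16 and 7.49 against 3.11 and 3.44, 16.6-fold), Lct, which encodes lactase (9.55-fold), the factor Rfx3 (7.16-fold), Dock10, an exchange factor for small GTPases (3.22-fold), and the cation channel gene Trpc6 (difference 1.27, limma adjusted p = 0.025), which was named after its values were seen, to complete the count. Trpc6 was not called without cortex array 3, cortex array 6 or hippocampus array 3 (limma adjusted p = 0.075, 0.13 and 0.18). Calb1, the calcium buffer calbindin, measured 10.91 and 11.39 against 10.28 and 10.82 and missed the threshold (limma adjusted p = 0.15). Npnt, an extracellular matrix protein on the same list, differed by -1.55 and was called in favour of cortex; it is named because it was the 1 member on that side. The dentate markers therefore did not all point the same way.

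Of 7 CA1 markers tested, 5 were called higher in hippocampus and 0 lower, with a median of 1.97. Spink8, a protease inhibitor gene, measured 8.63 and 8.41 in hippocampus and 3.35 and 4.29 in cortex (difference 4.70, SE 0.35). Fibcd1, an acetyl-group receptor, measured 9.29 and 9.68 against 5.54 and 4.93, 19.0-fold higher. Wfs1, the wolframin of the endoplasmic reticulum, measured 12.09 and 11.35 against 10.17 and 9.33, 3.92-fold higher. Gpr161, a ciliary receptor, was 5.58-fold higher and Ccn3, a matricellular protein, 2.81-fold. Pou3f1 and Mpped1 missed the threshold, Pou3f1 with 7.12 and 7.09 against 6.54 and 6.05.

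CA2 and CA3 markers were fewer and less uniform. Amigo2, an adhesion protein of CA2, measured 6.75 and 6.64 in hippocampus and 3.74 and 3.56 in cortex, 8.25-fold higher. Of 6 CA2 markers, 3 were called higher and 1 lower, and without cortex array 6 or hippocampus array 6 only 2 of the 4 calls were made. Rgs14, a suppressor of CA2 plasticity, differed by 1.15 and lost its call without cortex array 3, cortex array 6 or hippocampus array 6. Pcp4, a calmodulin regulator also found in deep cortical layers, differed by -1.69, and its call was lost without hippocampus array 6. Of 6 CA3 markers, 2 were called higher and 1 lower. Grik4, a high-affinity kainate receptor subunit, measured 7.95 and 8.33 against 5.42 and 6.21, 5.01-fold higher (limma adjusted p = 0.00044). Coch, a secreted matrix protein on the CA3 list, was 6.5-fold higher in cortex, at 8.08 and 7.67 against 5.51 and 4.84. Calb2, the calcium buffer calretinin that marks hilar mossy cells as well as interneurons, measured 9.16 and 9.11 against 6.25 and 5.76, 8.75-fold higher. It was the only 1 called of 3 hilar mossy cell markers tested.

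**Figure D3:**
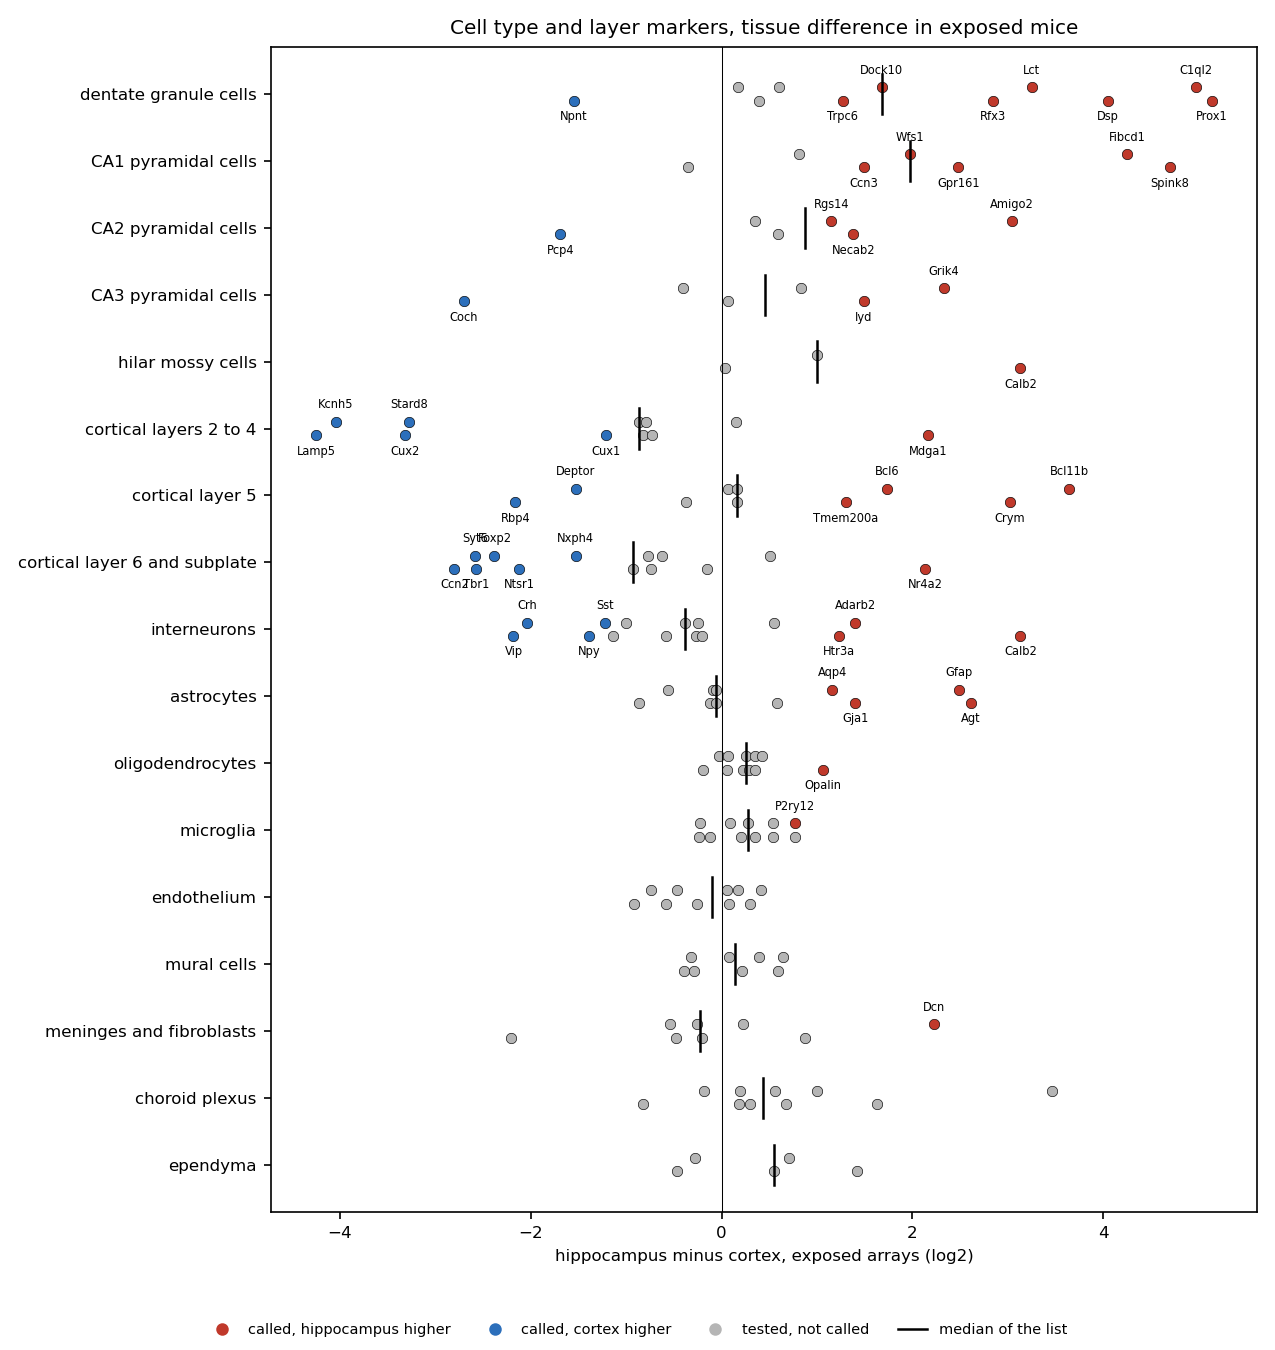
Log2 difference, hippocampus minus cortex in exposed mice, of each tested marker gene by cell type list; red and blue points are called, grey points are tested and not called, and black bars are list medians. Dentate (median 1.68) and CA1 (1.97) markers lie to the right, markers of layers 2 to 4 (-0.87) and layer 6 (-0.93) to the left.

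Among genes higher in cortex, Dkkl1, a secreted relative of the Dickkopf Wnt inhibitors, had the largest difference of those with a symbol. It measured 10.73 and 9.25 in the cortex arrays and 5.14 and 4.73 in the hippocampus arrays, 33.2-fold apart (difference -5.05, SE 0.44, limma adjusted p = 1.8e-05). Lamp5, a membrane protein of upper layer neurons and of a class of interneurons, measured 14.48 and 14.56 in cortex and 10.57 and 9.98 in hippocampus (-4.25, SE 0.28). Cbln2, a cerebellin that organizes synapses, measured 11.08 and 10.98 against 6.56 and 6.55 and was 22.2-fold higher in cortex. The stretches upstream of Dkkl1 and Lamp5 are shown as those of the strongest cortex-higher gene and of a layer marker, taken in the same way as above.
Dkkl1 (chr7:45211884-45212133, - strand): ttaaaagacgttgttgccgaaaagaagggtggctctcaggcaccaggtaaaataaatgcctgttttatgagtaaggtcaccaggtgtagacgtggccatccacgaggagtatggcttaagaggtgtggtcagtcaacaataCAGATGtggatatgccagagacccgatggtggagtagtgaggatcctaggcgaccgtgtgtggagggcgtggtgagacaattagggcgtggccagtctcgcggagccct
Lamp5 (chr2:136052089-136052338, + strand): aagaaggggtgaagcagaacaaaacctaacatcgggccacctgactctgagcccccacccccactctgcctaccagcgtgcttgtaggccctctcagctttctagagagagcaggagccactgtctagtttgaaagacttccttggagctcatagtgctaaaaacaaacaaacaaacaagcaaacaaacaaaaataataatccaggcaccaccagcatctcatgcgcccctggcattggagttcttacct
Dkkl1 held CAGATG 109 to 104 bases before its start, and none of the searched runs of letters was found in the Lamp5 stretch. Among the 541 cortex-higher genes with a listed promoter, 10.7% held CAGATG, 6.1% held TATAAA and 4.99% held the MEF2 motif, against 2.77% with the MEF2 motif over all tested genes and 2.8% among hippocampus-higher genes. These shares are given as a description, with no test.

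Stx1a, the SNARE protein syntaxin 1A, measured 10.62 and 11.26 in cortex and 6.54 and 6.59 in hippocampus, 20.7-fold apart. Rims3, an active zone protein, measured 9.66 and 9.60 against 5.90 and 5.94, 13.1-fold apart. Kcnh5, a voltage-gated potassium channel, measured 11.67 and 12.21 against 7.78 and 8.01, 16.5-fold apart. Cdkn1a, a cell cycle inhibitor and stress-responsive gene, was 13.1-fold higher in cortex, though its hippocampus arrays lay apart from each other at 7.86 and 5.39. H2-T23, a non-classical MHC class I gene, was 13.3-fold higher in cortex, Igfbp6, which binds insulin-like growth factors, 12.1-fold, and Cobl, an actin nucleator, differed by -3.45. Gm765, a predicted gene, was 25.1-fold higher. The palmitoyltransferase gene Zdhhc22 was 11.4-fold higher, Ankrd34c 11.1-fold and the phosphatase inhibitor gene Arpp19 10.6-fold.

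Layer markers separated into groups. Of 11 markers of layers 2 to 4, 5 were called higher in cortex and 1 in hippocampus, with a median of -0.87. Cux2, a homeodomain factor of upper layers, measured 8.99 and 9.23 in cortex and 6.10 and 5.48 in hippocampus, 9.99-fold apart. Stard8, a GTPase-activating protein, was 9.68-fold higher in cortex. Rorb, the nuclear receptor that marks layer 4, measured 10.66 and 10.81 against 10.33 and 9.56 and missed the threshold (difference -0.79, limma adjusted p = 0.18; its other probe set gave -0.77). Mdga1, an adhesion protein on this list, ran the other way and was 4.47-fold higher in hippocampus.

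Of 13 markers of layer 6 and subplate, 6 were called higher in cortex and 1 in hippocampus, with a median of -0.93. Tbr1, a T-box factor of layer 6 neurons, was lower in both hippocampus arrays, at 13.17 and 12.51, than in either cortex array (difference -2.57, SE 0.30). Foxp2, a forkhead factor of corticothalamic neurons, measured 5.23 and 5.93 against 3.32 and 3.08, without overlap. Syt6, a synaptotagmin, was 5.96-fold higher in cortex and the neurotensin receptor Ntsr1 4.33-fold. Ccn2, a subplate marker and matricellular protein, measured 8.84 and 9.25 in cortex and 7.63 and 4.85 in hippocampus. The Ccn2 difference of -2.80 was -1.41 without hippocampus array 6, and its call was lost without cortex array 6 (limma adjusted p = 0.078). Nr4a2, an orphan nuclear receptor expressed in subplate neurons and induced by activity, was the member higher in hippocampus.

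Layer 5 markers split between the tissues, with 4 of 10 called higher in hippocampus and 2 in cortex. Bcl11b, a zinc finger factor of subcerebral projection neurons that hippocampal neurons also use, measured 10.42 and 11.03 in hippocampus and 7.09 and 7.08 in cortex, 12.5-fold higher. Crym, a thyroid hormone-binding protein, measured 9.82 and 9.89 against 6.77 and 6.89, 8.14-fold higher. The transcriptional repressor Bcl6 was 3.32-fold higher and the membrane protein gene Tmem200a 2.46-fold. Rbp4, a retinol carrier used as a layer 5 driver gene, was 4.48-fold higher in cortex. Fezf2, which specifies subcerebral neurons, overlapped between the tissues, with 11.36 and 10.84 in hippocampus and 11.16 and 10.89 in cortex.

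Of 27 transcription factors of the pallium, 10 were called higher in hippocampus and 6 in cortex, and the centred arrays gave 9 and 8. Lmo3, a LIM-only cofactor, measured 16.25 and 16.20 in hippocampus and 13.23 and 12.82 in cortex, 9.19-fold higher. Lhx9, a LIM-homeodomain factor, measured 5.97 and 6.70 against 2.71 and 2.89, 11.6-fold higher. Mef2c, a MADS-box factor of excitatory and inhibitory neurons, measured 17.46 and 17.74 in cortex and 14.26 and 13.90 in hippocampus, 11.5-fold apart (limma adjusted p = 1.2e-06).

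Glutamate and GABA receptor genes differed subunit by subunit. Of 15 ionotropic glutamate receptor genes tested, 4 were called higher in hippocampus and 2 in cortex. Gria1, an AMPA receptor subunit, measured 17.52 and 17.62 in hippocampus and 14.55 and 13.84 in cortex, 10.4-fold higher. Gria2, which makes the receptor calcium-impermeable, measured 15.20 and 15.77 against 14.68 and 15.09 and missed the threshold (difference 0.60, limma adjusted p = 0.14). The NMDA receptor subunit Grin2a was 2.88-fold higher in hippocampus. The kainate subunit Grik3 differed by -1.50 in favour of cortex, and its call was lost without cortex array 6. Of 7 genes for metabotropic receptors and vesicular glutamate transporters, Grm5 was 3.71-fold higher in hippocampus and Grm3 2.94-fold higher in cortex.

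Of 9 GABA-A receptor subunit genes tested, 3 were called higher in hippocampus and 2 in cortex. Gabra5, the subunit of extrasynaptic receptors on hippocampal pyramidal cells, measured 16.58 and 16.90 in hippocampus and 13.43 and 13.28 in cortex, 10.4-fold higher (limma adjusted p = 1.6e-06). Gabrb1 was 3.49-fold higher in hippocampus. Gabrd, which forms extrasynaptic receptors of another type, measured 7.67 and 7.40 in cortex and 4.95 and 5.16 in hippocampus, 5.58-fold apart, and Gabra3 was 3.2-fold higher in cortex. The vehicle arrays gave Gabra5 and Gabrd differences of 3.00 and -2.73.

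Nicotinic receptors are the targets of clothianidin, and 5 of 11 genes for their subunits on the list were tested. The accessory subunit gene Chrna5 measured 6.21 and 5.98 in hippocampus and 3.26 and 3.58 in cortex, a difference of 2.68 (SE 0.29). Chrna7, which forms homomeric receptors, measured 9.52 and 9.76 against 7.42 and 7.37, 4.74-fold higher. Chrna4, the main partner of Chrnb2 in high-affinity receptors, ran the other way at 12.04 and 12.09 in cortex and 10.55 and 10.32 in hippocampus, 3.1-fold apart. Chrnb2 differed by 1.25 in favour of hippocampus, and its call was lost without cortex array 3, cortex array 6 or hippocampus array 6. The Chrnb2 difference was 0.97 to 1.53 with 1 array left out. Chrna4 and Chrnb2 thus had differences of opposite sign in exposed mice, but the call of Chrnb2 depended on single arrays. The vehicle differences were 1.75 for Chrna5, 1.74 for Chrna7, 0.79 for Chrnb2 and -2.59 for Chrna4. Of 7 muscarinic receptor and cholinesterase genes, 2 were called higher in hippocampus and 1, Chrm4, higher in cortex. Chrm1 was 2.66-fold higher in hippocampus, and Chrm5 measured 5.55 and 5.86 against 2.53 and 3.00 in cortex. The Chrm4 call was lost without cortex vehicle 1, cortex array 3, cortex array 6 or hippocampus array 6.

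**Figure D4:**
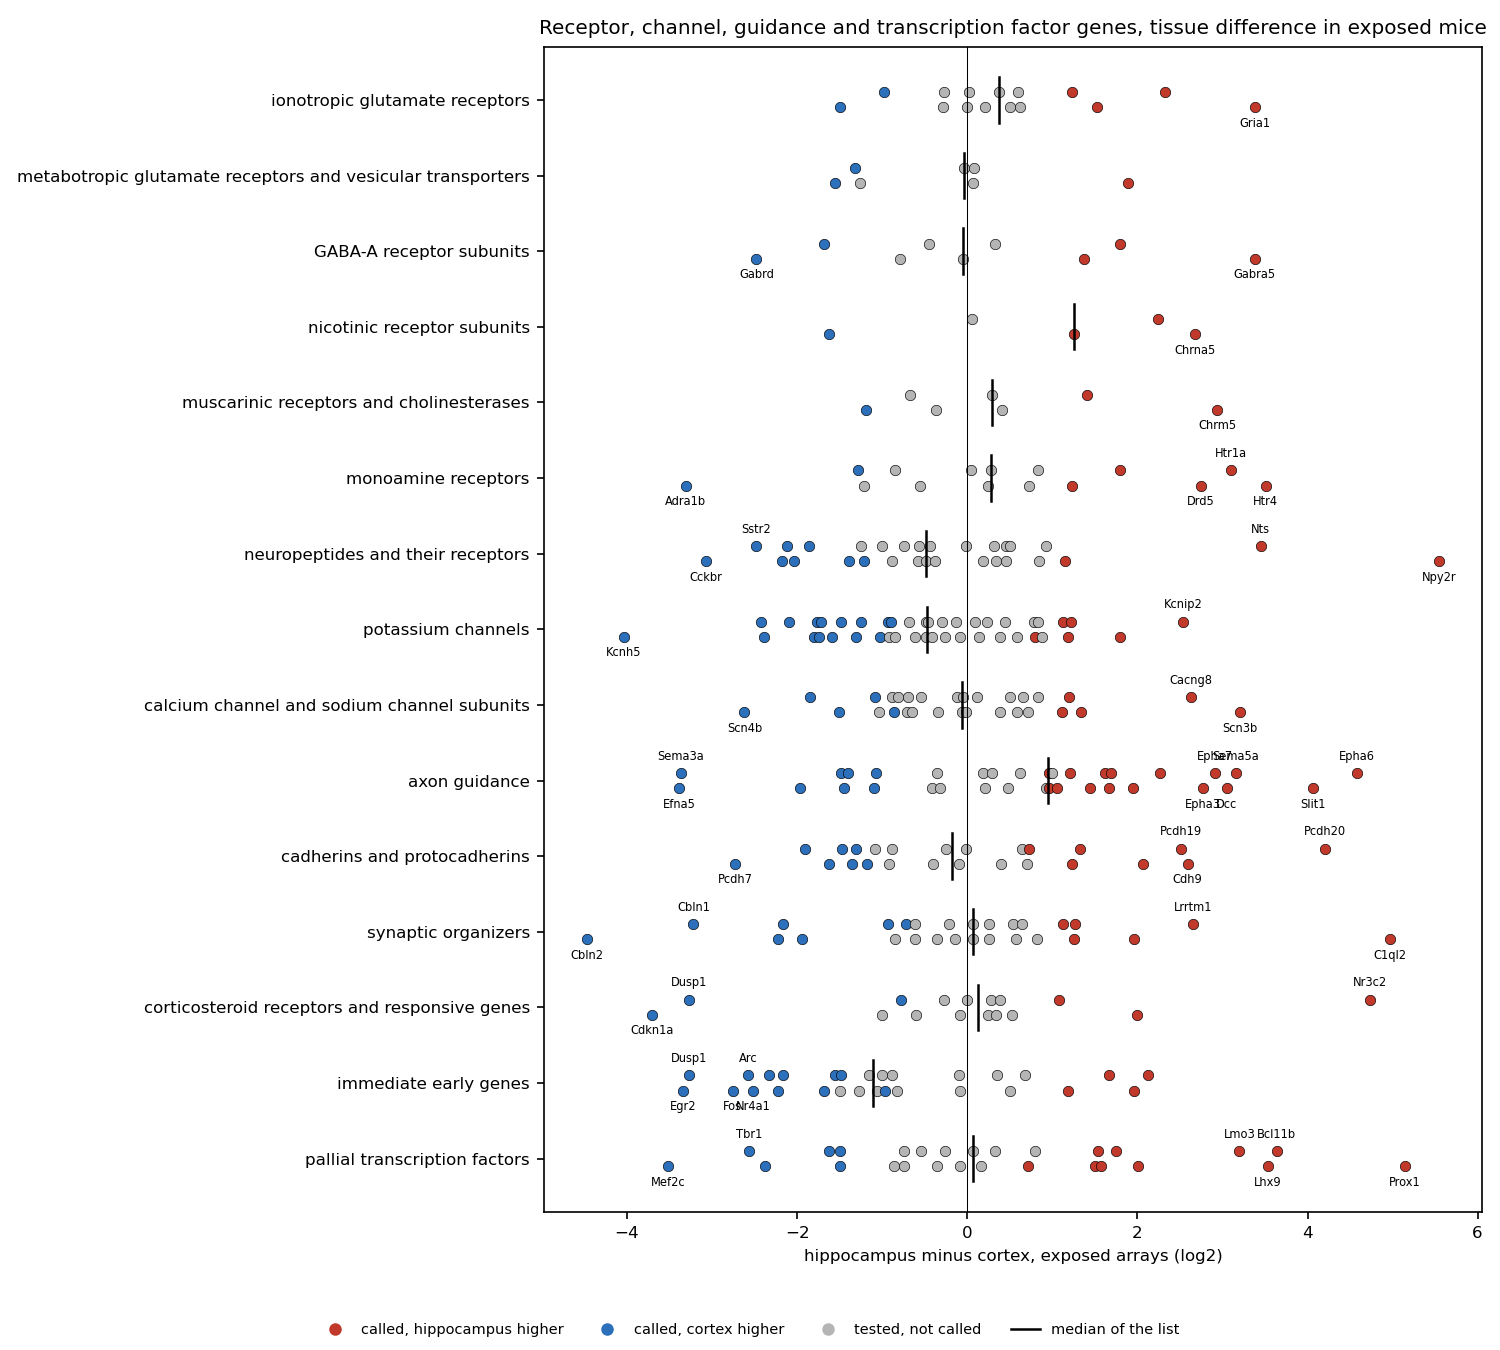
Log2 difference, hippocampus minus cortex in exposed mice, of each tested gene by gene family, drawn as in the plot of marker genes. Most families hold called genes on both sides of 0, such as Gabra5 at 3.38 and Gabrd at -2.48; immediate early genes have a median of -1.11.

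Of 15 monoamine receptor genes, 5 were called higher in hippocampus and 2 in cortex, against 9.25% and 5.22% of all tested probe sets. The serotonin receptor gene Htr4 measured 9.51 and 9.52 in hippocampus and 6.26 and 5.75 in cortex, 11.4-fold higher. Htr1a, the inhibitory serotonin receptor of pyramidal cells, was 8.6-fold higher, the dopamine receptor gene Drd5 6.7-fold and Htr5b 3.46-fold. Adra1b, an alpha-1 adrenergic receptor, measured 7.35 and 7.27 in cortex and 3.71 and 4.29 in hippocampus, 9.92-fold apart.

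Of 29 neuropeptides and their receptors, 8 were called higher in cortex and 3 in hippocampus, with a median of -0.49. Nts, which encodes neurotensin, measured 7.38 and 7.53 in hippocampus and 3.72 and 4.28 in cortex, a difference of 3.45 (SE 0.31). Cckbr, the brain cholecystokinin receptor, measured 11.47 and 10.83 in cortex and 8.92 and 7.23 in hippocampus, 8.43-fold apart. Vip, a peptide of disinhibitory interneurons, was 4.53-fold higher in cortex and Crh, corticotropin-releasing hormone, 4.11-fold. Sstr2, a somatostatin receptor, measured 10.48 and 9.59 against 7.76 and 7.36, 5.56-fold apart. Gad1, which encodes a GABA-synthesizing enzyme of all interneurons, measured 12.53 and 12.65 in hippocampus and 12.68 and 12.99 in cortex, without a call. Of 15 interneuron genes, 3 were called in favour of hippocampus and 4 of cortex; without cortex array 3, cortex array 6 or hippocampus array 6 the 7 calls fell to 4, 3 and 4.

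Potassium channel genes were called higher in cortex for 15 of 42 and in hippocampus for 6. The 21 calls were 13 without cortex array 6 and 12 without hippocampus array 6, with cortex-higher calls at 9 and 10. Kcnh1, a relative of Kcnh5, measured 11.04 and 11.04 in cortex and 9.04 and 8.83 in hippocampus, 4.3-fold apart. The modulatory subunit gene Kcns1 was 5.33-fold and the leak channel gene Kcnk9 3.49-fold higher in cortex. Kcnip2, which binds A-type channels, was 5.84-fold higher in hippocampus. Of 29 calcium and sodium channel subunit genes, 5 were called in each direction; without cortex array 3, cortex array 6 or hippocampus array 6, 6, 6 and 5 of the 10 were called. Scn3b, a sodium channel beta subunit, measured 15.43 and 15.73 in hippocampus and 12.50 and 12.23 in cortex, 9.29-fold higher, whereas its relative Scn4b was 6.15-fold higher in cortex. Cacng8, an AMPA receptor partner, was 6.19-fold higher in hippocampus and the calcium channel subunit gene Cacnb4 3.62-fold higher in cortex.

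Of 34 axon guidance genes, 16 were called higher in hippocampus and 8 higher in cortex, against 9.25% and 5.22% of all tested probe sets. Their median was 0.94. Slit1, a secreted repellent, measured 12.65 and 13.36 in hippocampus and 8.82 and 9.06 in cortex, 16.7-fold higher. Dcc, the netrin receptor, was 8.31-fold higher and Sema5a, a transmembrane semaphorin, 8.97-fold. Efna5, an ephrin ligand, measured 8.80 and 9.43 in cortex and 5.42 and 6.04 in hippocampus, and Sema3a, a secreted repellent, 8.91 and 9.41 against 6.16 and 5.41; both were 10.4-fold higher in cortex. Repellent ligands were thus found on both sides, and Epha6, a receptor for ephrin-A ligands, was on the side opposite to Efna5.

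Cadherins and protocadherins were called 7 times in each direction among 24 tested, and 9 of the 14 were called without hippocampus array 6. Pcdh20 measured 9.20 and 9.38 in hippocampus and 5.17 and 4.99 in cortex, 18.5-fold higher. Cdh9, a cadherin of dentate and CA3 neurons, was 6.02-fold higher and Pcdh19 5.68-fold. Pcdh7 measured 13.20 and 13.90 in cortex and 10.79 and 10.86 in hippocampus, 6.61-fold apart. Among 27 synaptic organizers, 6 were called higher in hippocampus and 7 in cortex. The related genes Lrrtm1 and Lrrtm3 lay on opposite sides, Lrrtm1 6.25-fold higher in hippocampus and Lrrtm3 4.5-fold higher in cortex. Cbln1, like Cbln2, was higher in cortex, at 9.35-fold, as was Nptx2, an activity-regulated pentraxin, at 4.64-fold.

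Immediate early genes, switched on within minutes of neuronal activity, were called higher in cortex for 12 of 28 and in hippocampus for 4, with a median of -1.11 against 0.12 over all probe sets. Without hippocampus array 6, 9 were called, 8 of them higher in cortex. Egr1 measured 16.30 and 15.88 in cortex and 13.90 and 13.61 in hippocampus, 5.05-fold apart (difference -2.33, SE 0.22, limma adjusted p = 3e-05). Egr2 measured 11.06 and 10.48 against 7.60 and 7.25, 10.2-fold apart, and Arc, a synaptic capsid-like protein, was 6.0-fold higher in cortex. Fos differed by -2.76 and Nr4a1 by -2.52, and their calls were lost without cortex array 6 or hippocampus array 6, Fos also without cortex array 3. The vehicle arrays had 15 calls in favour of cortex and 3 of hippocampus, with a median of -1.69.

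Dusp1, a phosphatase induced by activity and by glucocorticoids, measured 14.77 and 14.27 in cortex and 11.51 and 10.98 in hippocampus, 9.68-fold apart, and lost its call without cortex array 3 or hippocampus array 6. The stretches upstream of Dusp1 and Sstr2 are shown because both cortex-higher genes hold the cAMP response element TGACGTCA.
Dusp1 (chr17:26508473-26508722, - strand): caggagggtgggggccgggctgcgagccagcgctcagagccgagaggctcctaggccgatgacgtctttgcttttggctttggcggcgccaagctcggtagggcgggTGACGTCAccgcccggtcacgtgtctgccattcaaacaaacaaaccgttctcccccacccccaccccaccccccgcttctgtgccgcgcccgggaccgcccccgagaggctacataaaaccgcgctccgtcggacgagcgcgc
Sstr2 (chr11:113619077-113619326, + strand): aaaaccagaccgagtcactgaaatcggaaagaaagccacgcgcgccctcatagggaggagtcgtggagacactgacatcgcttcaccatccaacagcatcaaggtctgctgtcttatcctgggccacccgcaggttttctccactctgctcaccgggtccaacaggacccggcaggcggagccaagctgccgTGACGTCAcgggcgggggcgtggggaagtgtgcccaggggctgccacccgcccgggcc
The element lay 143 to 136 bases before the start of Dusp1 and 58 to 51 bases before that of Sstr2. It was present in 3.14% of cortex-higher, 1.24% of hippocampus-higher and 2.59% of all tested genes with a listed promoter. Of 22 immediate early genes with one, 2 held it. No factor binding was measured.

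Of 16 corticosteroid receptors and responsive genes, 3 were called in each direction. Besides Nr3c2, Fkbp5, a cochaperone induced by glucocorticoids, measured 11.36 and 11.61 in hippocampus and 9.32 and 9.66 in cortex, 3.99-fold higher. Nr3c1, the glucocorticoid receptor, measured 8.25 and 8.08 against 8.63 and 8.24 and was not called (difference -0.27, 95% interval -0.88 to 0.34, limma adjusted p = 0.57). The receptor genes thus differed in how far the tissues were apart, and the difference between them was not tested.

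Of 11 astrocyte genes, 4 were called higher in hippocampus and 0 in cortex, and 2 without cortex array 6, against 14.5% of all tested probe sets called. Gfap, the intermediate filament of astrocytes, measured 12.46 and 12.70 in hippocampus and 10.27 and 9.92 in cortex, 5.6-fold higher, and the gap junction gene Gja1 was 2.64-fold higher. The median of the list was -0.06 and its summed level was 17.63 to 17.99 in hippocampus and 17.44 to 18.01 in cortex. Mbp, the myelin basic protein, differed by 0.26 (SE 0.18) and was not called. Oligodendrocyte genes had 1 call in 11 and microglial genes 1 in 11; the former was lost without cortex array 6 or hippocampus array 6 and the latter without any 1 of the 4 exposed arrays. Of 10 endothelial, 8 mural and 5 oligodendrocyte precursor genes, 0 were called by limma, with unadjusted p under 0.05 for 1, 0 and 0; 1 endothelial gene was called with centred or quantile-normalized arrays. Of 7 striatal genes 0 were called, 4 had an unadjusted p under 0.05, and 1 was called with quantile normalization. In the exposed comparison, 4336 of all 14804 probe sets had an unadjusted p under 0.05 by limma. That share is the one to set beside such counts here and in the next paragraph. Of 8 thalamic genes, 2 were called higher in hippocampus, among them Prkcd, a kinase, 7.11-fold, and 1 higher in cortex.

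Choroid plexus genes were tested as markers of a tissue that borders the hippocampus. Ttr, the thyroid hormone carrier made by choroid epithelium, measured 7.27 and 6.39 in hippocampus and 5.73 and 4.68 in cortex, and it was 19.51 and 7.76 in vehicle hippocampus and 4.17 and 15.41 in vehicle cortex. The summed level of the 12 choroid genes on the array, 10 of them tested, was 9.01 to 9.32 in exposed hippocampus and 7.96 to 8.26 in exposed cortex, against 9.23 to 19.56 and 7.69 to 15.43 in the vehicle arrays. Folr1, the folate receptor of that epithelium, measured 3.36 and 4.97 in hippocampus and 3.60 and 4.13 in cortex, near the filter limit. Limma called 0 of the 10 (1 had an unadjusted p under 0.05) in the exposed comparison, and 3 of the 10, Otx2, Kcne2 and Calml4, had means below the filter limit in both exposed tissues and passed the filter with hippocampus vehicle 1 at 9.55, 9.26 and 7.47, so no tissue difference could be measured for them here. It called 2 others of the 10, Ttr (adjusted p = 0.024) and Kl, when the model held only the 4 exposed arrays. Kl, which encodes klotho and is made by choroid plexus and by some neurons, measured 8.08 and 7.71 in hippocampus and 4.46 and 4.40 in cortex, without overlap; it missed the threshold (limma adjusted p = 0.069), with a standard error of 1.17 that pools the spread of all groups. With the 4 exposed arrays alone its limma adjusted p was 3.7e-05, and without hippocampus vehicle 1 or 6 it was 0.00055 and 0.00053. Of 5 ependymal genes limma called 0, and 0 had an unadjusted p under 0.05; Cfap126, a motile cilium gene, measured 5.57 and 5.56 in hippocampus and 3.93 and 4.36 in cortex (difference 1.42, limma adjusted p = 0.27 with all arrays and 0.013 with the 4 exposed arrays). The part of choroid plexus RNA in the differences above was not tested.

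Several meningeal genes differed between arrays of 1 tissue. Ptgds, a prostaglandin synthase of the meninges, measured 17.93 in cortex array 3 and 15.91 in cortex array 6, and 16.35 and 13.08 in hippocampus arrays 3 and 6. Igf2, a growth factor of meningeal and vessel cells, measured 11.78 and 10.75 in cortex and 12.12 and 9.33 in hippocampus, and the matrix gene Fmod 9.75 and 7.50, and 9.02 and 4.04. Array 3 was thus above array 6 in both tissues for these genes. They were named for the largest gaps between exposed arrays, and Fmod is not on the meningeal list. Of that list, Dcn, Slc6a13, Lum and Aldh1a2 also had array 3 above array 6 in both tissues. Col1a1 ran the other way, with 4.57 and 4.86 in cortex arrays 3 and 6 and 4.80 and 5.07 in hippocampus. Col1a2 did so in cortex only, at 5.18 and 5.34. The summed level of the 9 meningeal and fibroblast genes on the array was 13.33 to 16.47 in hippocampus and 15.96 to 17.96 in cortex. Dcn, which encodes decorin, was the 1 list member called, with a difference of 2.23. The difference was 1.46 without cortex array 6 and 1.57 without hippocampus array 3, and its call was lost in both cases. Over all tested probe sets the median gap between the 2 arrays was 0.32 in hippocampus and 0.30 in cortex, and 687 and 571 probe sets had a gap above 1.

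Neurogenesis, Wnt and ribosomal lists gave scattered calls. Hopx, a marker of dentate stem cells and of astrocytes, measured 10.23 and 9.49 in hippocampus and 8.02 and 8.30 in cortex, 3.25-fold higher. Dcx, which marks immature neurons, measured 6.91 and 6.69 against 7.25 and 7.21 and was not called. Stmn1, a microtubule-destabilizing protein, was 4.66-fold higher in cortex. Of 28 Wnt and retinoid genes, 4 were called in each direction, and 4 of the 8 calls were made without cortex array 3, cortex array 6 or hippocampus array 3. Frzb, a secreted Wnt antagonist, was 4.18-fold higher in hippocampus. Of 25 cytosolic ribosomal protein genes, 2 were called and the median was 0.12, the same as over all probe sets; Rpl27 was 3.64-fold higher in hippocampus, and 1 of the 2 was called without cortex array 6 or hippocampus array 6.

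The same tissue contrast in vehicle mice gave 2620 calls (17.7%), 1491 in favour of hippocampus and 1129 of cortex. Of these, 1555 were called in the same direction in exposed mice, which is 72.6% of exposed and 59.4% of vehicle calls, and 0 were called in opposite directions. Of the 2143 exposed calls, 2113 (98.6%) had the same sign in vehicle mice, compared with 78.1% of all tested probe sets. Of 344 exposed calls of at least 4-fold, 339 were also called in vehicle mice. The exposed and vehicle comparisons share no array, but they were fitted in 1 model with 1 estimate of spread. Cortex-higher calls of the exposed arm had a median difference of -1.36 in exposed and -1.49 in vehicle mice, and hippocampus-higher calls 1.29 and 1.13. Taking the vehicle calls instead, the medians were -1.02 in exposed and -1.34 in vehicle mice for cortex-higher, and 1.10 and 1.28 for hippocampus-higher calls. Without cortex vehicle 1 or cortex vehicle 6 the vehicle arm had 1289 and 1300 calls, and without cortex vehicle 6 and hippocampus vehicle 1, the 2 arrays high in choroid plexus transcripts, 1155.

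Limma called 0 probe sets in the test of whether the tissue difference itself differed between the arms, while 511 (3.45%) had an unadjusted p under 0.05. The median half-width of the 95% interval for that change was 0.93. Nr4a2 had the smallest unadjusted p of genes with a symbol, 2.3e-05 (limma adjusted p = 0.12). It measured 13.53 and 13.13 in exposed hippocampus and 11.06 and 11.33 in exposed cortex, and 13.03 and 13.11 in vehicle hippocampus and 13.40 and 13.00 in vehicle cortex. The tissue difference was 2.13 in exposed and -0.13 in vehicle mice. Tshz2, a zinc finger factor of deep cortical and retrosplenial neurons, differed by -1.62 in exposed and -3.64 in vehicle mice, with 11.29 and 10.35 in exposed against 8.33 and 8.24 in vehicle hippocampus (unadjusted p = 6e-04). Tshz2 is on the list of subiculum, entorhinal and retrosplenial markers, of which 2 of 6 were called higher in hippocampus and 2 in cortex of exposed mice. On that list, Slc17a6, a vesicular glutamate transporter, measured 8.82 and 8.37 in exposed and 7.23 and 7.49 in vehicle hippocampus (tissue difference -1.32 and -2.66, unadjusted p = 0.0041), and its exposed call was lost without cortex array 6 or hippocampus array 6. Nts measured 7.38 and 7.53 in exposed and 6.06 and 6.43 in vehicle hippocampus (3.45 and 2.04, unadjusted p = 0.0068). Lxn, a carboxypeptidase inhibitor, differed by 1.81 and 1.19 (limma unadjusted p = 0.16). Of the remaining members, Cxcl14 differed by -0.79 and -1.01 (limma unadjusted p = 0.62) and Fn1 by 0.56 and 0.21 (limma unadjusted p = 0.46). The summed level of the 6 genes was 12.72 to 13.19 in exposed and 12.24 to 12.37 in vehicle hippocampus, and 13.11 to 13.24 and 12.88 to 13.01 in cortex of exposed and vehicle mice. The part of these markers in the differences between arms was not tested. Coro6, an actin-binding coronin, differed by -1.88 and -3.60. Stoml3, a stomatin-like protein of mechanosensory neurons, differed by 1.58 and 3.77; its exposed call was lost without cortex array 6 or hippocampus array 3. Each of these missed the adjusted threshold for a difference between arms, as did Vmn2r121, Tet2, Vmn1r137, Metap1d, Nubp1 and Ccdc148, which were among the genes with the smallest p. Without hippocampus vehicle 6, its group held only hippocampus vehicle 1, an array high in choroid plexus transcripts (Ttr at 19.51). The change in tissue difference, exposed minus vehicle, was then 2.30 for Nr4a2. For choroid plexus genes it was -7.47 for Kcnj13, -6.38 for Folr1, -6.17 for Clic6 and -6.12 for Otx2. It was -5.79 for Kcne2, -4.23 for Calml4 and -3.86 for Sostdc1. These genes were picked after their values were seen. Otx2, Kcne2 and Calml4 had means below the filter limit in both exposed tissues, so their values rest on that 1 vehicle array.

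**Figure D5:**
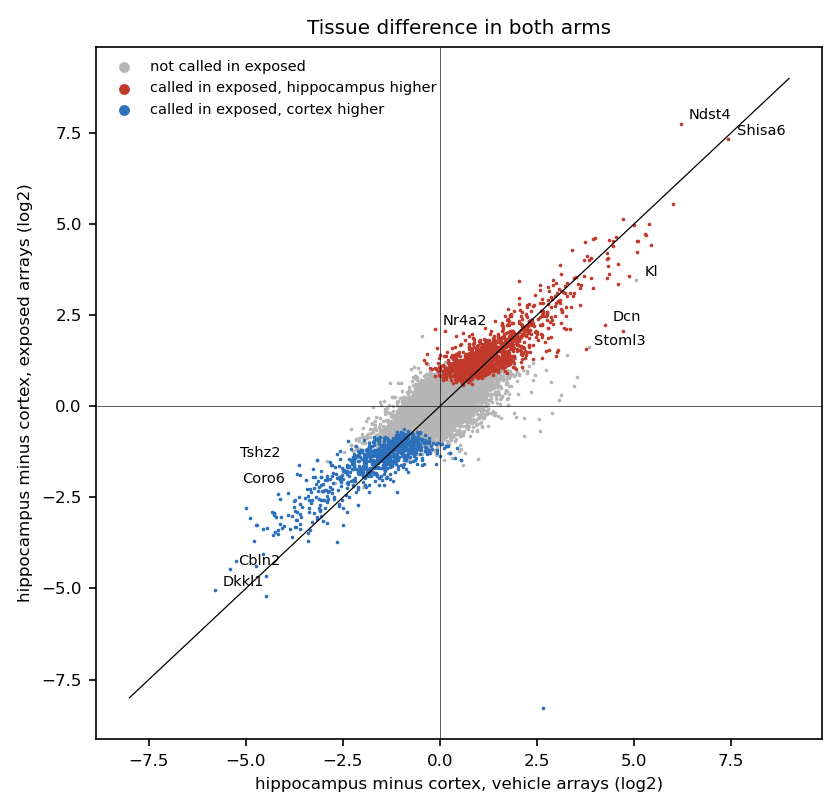
Log2 difference, hippocampus minus cortex, in vehicle (x axis) and exposed mice (y axis) for each tested probe set; coloured points were called in exposed mice and the line marks equal differences. Of 2143 called points 2113 have the same sign in both arms, and Nr4a2 (2.13 exposed, -0.13 vehicle) and Tshz2 (-1.62 and -3.64) lie away from the line.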

How the data were processed

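Total RNA of cerebral cortex and hippocampus was hybridised to 1-colour Affymetrix arrays, 250 ng per sample with an RNA integrity number above 7.0, per the labels' protocols. The authors deposited log2 values per probe set; RMA is named in the submitters' processing notes, with neither version nor summary level given in the sources used here, and the log base was taken from the range of the values, 1.59 to 19.93. Columns of other samples numbered 0.

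The 33.3% of probe sets with the lowest mean over the 8 arrays were left out. A model with 1 mean for each of the 4 groups was fitted with R 4.3.3 and limma 3.58.1 (lmFit and eBayes, trend on; residual degrees of freedom 4, prior 7.918). All tests were two-sided, p-values were adjusted by Benjamini-Hochberg over 14804 probe sets, and intervals are 95% intervals. Symbols came from the platform annotation; all 19572 matched RefSeq by Entrez identifier, and 2634 probe sets had none. Of 55 genes with more than 1 probe set, lists used the one with the highest mean. A list's summed level is log2 of its members' summed linear values. Promoter stretches were taken from RefSeq, build GRCm38.p6, for 10668 of 13198 tested genes.

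Gene members and lists were chosen with earlier results of these data known. Genes were named by rule: the 15 largest differences per direction among calls without overlap, up to 6 called and 3 missed members per list, the 5 smallest p per direction between arms, the 5 largest gaps between exposed arrays per tissue, and a fixed set of markers; not every gene so chosen is described. Alternatives were the filter, centring, quantile normalization, the trend, array weights, the arm's own arrays, the replicate block and each array left out. The model was tested on simulated data.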

Additional observations from a re-analysis of the deposited data

How the results depend on the processing

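Over 18 alternatives, 116 of the 128 called genes with a described value kept their direction and their call. These genes were named mainly for the size of their difference, so this share does not stand for all calls. Leaving out 1 array gave 1074 to 2440 exposed calls, 1289 to 2532 vehicle calls and 0 to 30 calls for the difference between arms, with fewer samples in each fit. Without the 2 vehicle arrays high in choroid plexus transcripts the vehicle arm had 1155 calls, from 2 arrays fewer. Directions turned for 4 genes that were not called. Fezf2 differed by -0.07 with quantile normalization and -0.06 with centred arrays. With 1 array left out, Fezf2 ranged from -0.18 to 0.34, Folr1 from -0.50 to 1.10, Igf2 from -1.93 to 0.86 and Fmod from -4.58 to 0.39. The causes were not tested.

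Numbers 3 and 6 of the exposed arm and 1 and 6 of the vehicle arm occur in both tissues, but the labels do not say that a number marks 1 animal. Deviations of same-numbered arrays from their group means correlated at 0.28 in the exposed and -0.00 in the vehicle arm. With the replicate block the exposed comparison had 2835 calls and the difference between arms 1; with a random replicate block (consensus correlation 0.19) there were 2902 and 3, the 3 being Nr4a2 (2.27, limma adjusted p = 0.041) and 2 probe sets without a symbol.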

Other observations

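Probe sets without a gene symbol made up 1563 of the 14804 tested, and limma called 199 of them between the tissues of exposed mice, 124 higher in hippocampus and 75 higher in cortex. One of these, TC1700001227.mm.2, had the lowest difference of all tested probe sets, -8.27 (SE 1.08, limma adjusted p = 0.00038). It measured 11.53 and 13.52 in exposed cortex and 3.34 and 5.18 in exposed hippocampus, and 5.78 and 4.01 in vehicle cortex and 9.55 and 5.58 in vehicle hippocampus, where the tissue difference was 2.67. With the replicate block, the change in its tissue difference, exposed minus vehicle, was -10.94 (limma adjusted p = 3.9e-06), the 1 call between arms. With the random replicate block the change was again -10.94 (limma adjusted p = 0.022), 1 of the 3 calls. In the main model limma did not call it between arms. The probe set was picked after its values were seen.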
